A study of Mus musculus with 6 samples.

Results

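Ion channels, calcium pumps and connexins set how a lymphatic endothelial cell senses flow and stretch, moves calcium and passes signals to its neighbours. In lymphatic vessels, oscillating flow acts through mechanosensitive channels such as Piezo1 and through calcium signals to valve formation, and connexins couple the endothelial cells of valves and vessel walls. Calcium that enters through the plasma membrane or leaves the endoplasmic reticulum is returned to the store or expelled by calcium pumps, and potassium channels set the membrane potential that drives its entry.

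The genes described here are the 42 genes, of 4233 in the deposited table, whose symbols match fixed patterns for potassium, TRP, voltage-gated calcium, Piezo, sodium, chloride and anoctamin channels, IP3 and ryanodine receptors, calcium pumps, Orai and Stim proteins, connexins, pannexins, Lrrc8 channels, P2 receptors and ionotropic glutamate receptors. The symbols alone chose them, with no use of their values. In the GENCODE M21 annotation 249 protein-coding genes match the same patterns, and the genes that the table does not list, which include all Orai and Stim genes, were not analysed here. The 42 comprise 12 of 81 annotated potassium channel genes, 5 of 24 TRP, 1 of 26 voltage-gated calcium, 2 of 2 Piezo, 4 of 14 sodium, 2 of 19 chloride and anoctamin, 1 of 6 IP3 and ryanodine receptor, 4 of 9 calcium pump, 2 of 19 connexin, 3 of 8 pannexin and Lrrc8, 2 of 16 P2 receptor and 4 of 20 glutamate receptor genes.

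Bulk RNA sequencing was performed on lymphatic endothelial cells sorted from the brain meninges of male C57BL/6J mice aged 6 months, as single cells without DAPI and CD45 and with CD31 and podoplanin. There were 3 libraries from hemizygous 5xFAD mice, which carry transgenes under the neuronal Thy1 promoter and deposit amyloid in the brain, and 3 from non-transgenic littermates (WT). Each library pooled the meninges of 10 mice. In such bulk samples fewer cells of a type and less RNA per cell cannot be told apart.

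The libraries held 7960827 to 13255050 recovered reads in 5xFAD and 10263689 to 11934686 in WT over the listed genes, so full library depth is unknown. Of the listed genes 86 to 147 had no reads in a 5xFAD library, against 25 to 42 in a WT library. Of 18 lymphatic endothelial markers 16 were listed, and 0 passed by limma (2 higher at an unadjusted p under 0.05, 0 by DESeq2 and 1 higher by edgeR). Their summed normalised count was 278723 to 444592 in 5xFAD and 301982 to 339855 in WT. Of the pan-endothelial markers 12 of 13 were listed and 2, Robo4 and Sox17, were lower in 5xFAD, with sums of 54450 to 69989 in 5xFAD and 64641 to 102829 in WT. Sox17 had 0 reads in all 5xFAD libraries. The call of Robo4 (log2 fold change -2.15, limma adjusted p = 0.0151) was lost by DESeq2 (adjusted p = 0.140), with a constant prior variance (limma adjusted p = 0.200) and without 5xFAD 3 (-1.31), WT 2 (-1.88) or WT 3 (-1.98; limma adjusted p between 0.124 and 0.220 for these libraries). The blood endothelial list (5 of 12 listed) summed to 20327 to 26699 in 5xFAD and 24917 to 28060 in WT, with 0 called by limma, 1 lower at an unadjusted p under 0.05 and 1 lower each by DESeq2 and edgeR. Its member Ephb4 did not overlap between genotypes, at 1880, 2085 and 2157 in 5xFAD and 14140, 6004 and 5879 in WT (log2 fold change -1.96, limma adjusted p = 0.0746). Ephb4 does not stand for the blood endothelial list, whose median log2 fold change was 0.17, with 3 of the 5 tested genes positive. The fibroblast list (6 of 10) summed to 34490 to 36117 in 5xFAD and 31490 to 64800 in WT. The leukocyte list (2 of 10, Mrc1 and Cx3cr1) summed to 8187 to 11371 in 5xFAD and 8429 to 11862 in WT, and 0 of 6 erythroid and platelet markers were listed. Nearly all of the leukocyte sum was Mrc1, so it does not measure leukocyte content. Cx3cr1 was at 60.8 to 82.3 in 5xFAD and 32.9 to 186 in WT. The part of these other cells in the results was not tested.

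All 3 5xFAD libraries gave a smaller share of their reads to the 42 genes than any WT library. The share was 0.441%, 0.522% and 0.654% in 5xFAD libraries 1, 2 and 3, against 0.702%, 0.672% and 0.699% in WT libraries 1, 2 and 3. The difference in this share was not tested. In normalised counts, the deposited values scaled by 1 factor per library, the sums overlapped, at 57804 ± 14382 in 5xFAD and 67848 ± 5242 in WT (SD, n = 3 each). The 5 genes with the highest normalised counts, Kcnn3, Scn3a, Lrrc8a, Piezo2 and Atp2b4, made up 55.4% of the summed value over the 6 libraries, and the other 37 genes summed to 23929 ± 4512 in 5xFAD and 32062 ± 4483 in WT.

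Divided by the length of their annotated exons in kilobases, the levels placed Lrrc8a, Kcnn3 and Scn3a at the top in 5xFAD. Lrrc8a, the subunit that volume-regulated anion channels need, was at 1209 normalised counts per kilobase in 5xFAD and 2301 in WT. Kcnn3, a small-conductance channel that calcium opens, was at 1108 in 5xFAD and 883 in WT, and Scn3a, a pore subunit of voltage-gated sodium channels, at 611 in 5xFAD and 690 in WT. After these came Atp2a2 (411 in 5xFAD and 714 in WT), Kcnj8 (411 and 898), Piezo2 (361 and 185), Gja1 (330 and 201), Kcna1 (295 and 114), Atp2b4 (268 and 397) and Piezo1 (243 and 483), each per kilobase with 5xFAD first. Over the 5xFAD libraries the ranges of neighbours in this order overlapped. Over the WT libraries Lrrc8a (1479 to 2717 per kilobase) lay above Kcnn3 (541 to 1136), Kcnj8 (283 to 2043) above Piezo2 (133 to 261) and Atp2b4 (226 to 615) above Kcna1 (28.9 to 220), and the other neighbours overlapped. Scn1a and Kcnd1 had a mean normalised count under 10 over the 6 libraries, which kept them out of the tests.

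**Figure D1:**
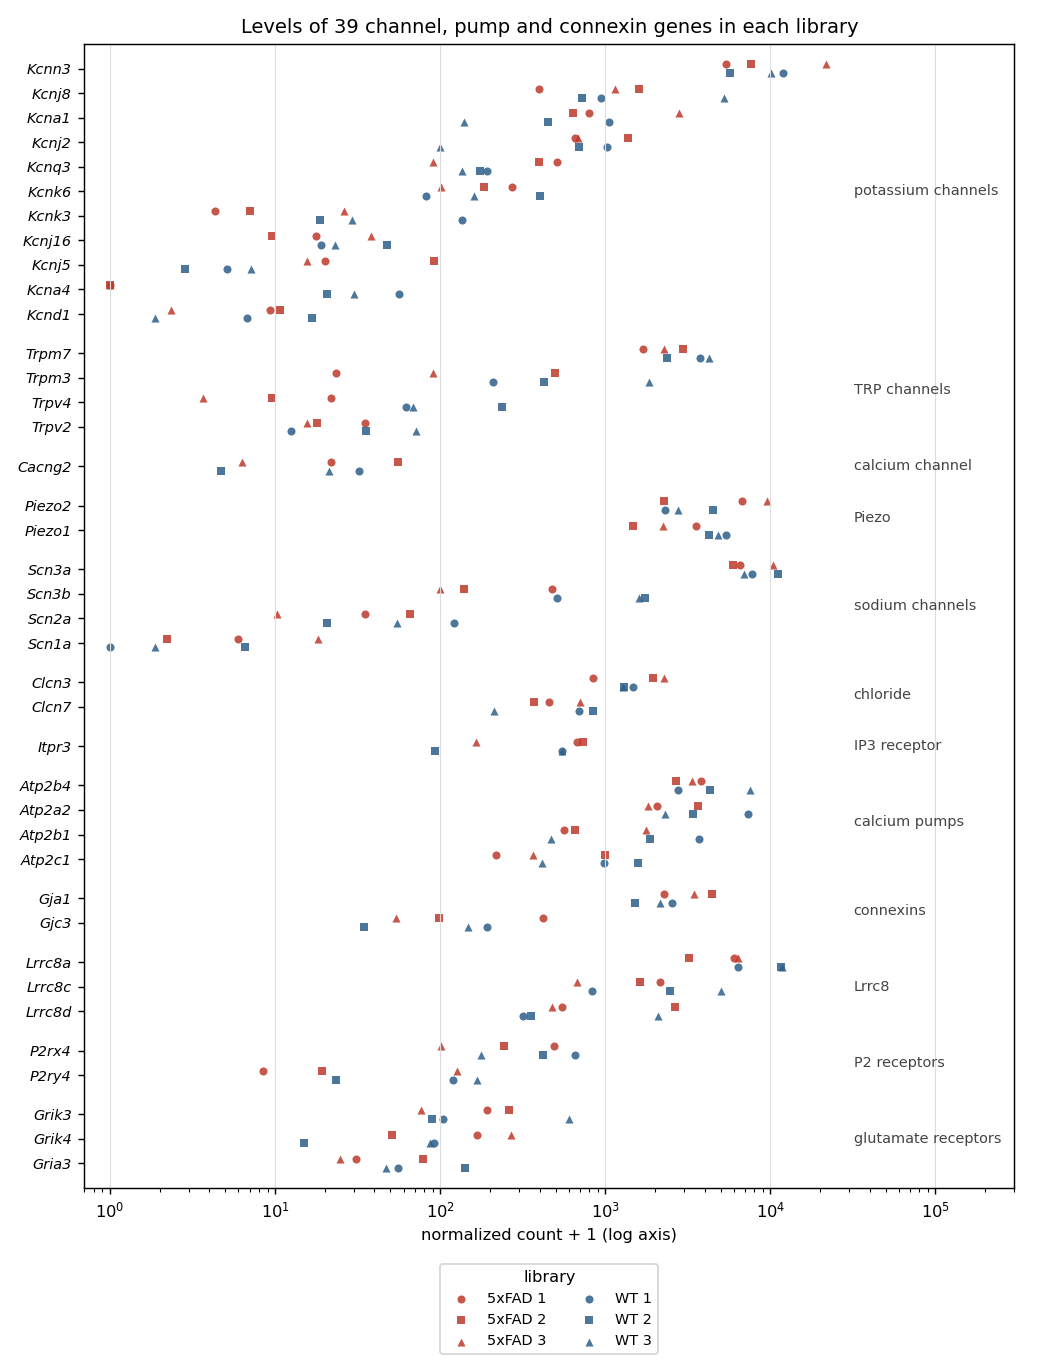
Normalised count plus 1 (log axis) of 39 of the 42 genes in each library, with 5xFAD in red above WT in blue and a marker shape for each library number. By mean level the genes span Kcnn3, at 5380 to 21778 in 5xFAD and 5657 to 11871 in WT, down to Scn1a, at 1.22 to 17.2 in 5xFAD and 0 to 5.58 in WT. Kcna4 lies at 0 in all 5xFAD libraries and at 19.5 to 55.1 in WT.

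Of the 40 genes tested, 2 were higher in 5xFAD and 2 were lower, Kcna4 and Trpv4 (limma, Benjamini-Hochberg adjusted p under 0.05 over 4152 tested genes). Over all tested genes 1.88% were higher and 4.48% lower by the same rule, and 4 of the 40 against 6.36% of all tested genes were called in either direction, so the calls are near that background. The median log2 fold change of the 40 genes was -0.51, and it was the same with genes that lack reads in a genotype placed at their bound. Over all tested genes it was -0.02. The sign was negative for 25 of the 40 (62.5%) and for 50.7% of all tested genes, and the median of the 40 was -0.10 without WT 3. At an unadjusted p under 0.05, 3 of the 40 were higher and 5 lower, against 6.7% and 9.61% of all tested genes. The 3 5xFAD libraries lay above all WT libraries for 3 genes (7.97% of all tested genes) and below them for 5 genes (10.1%).

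**Figure D2:**
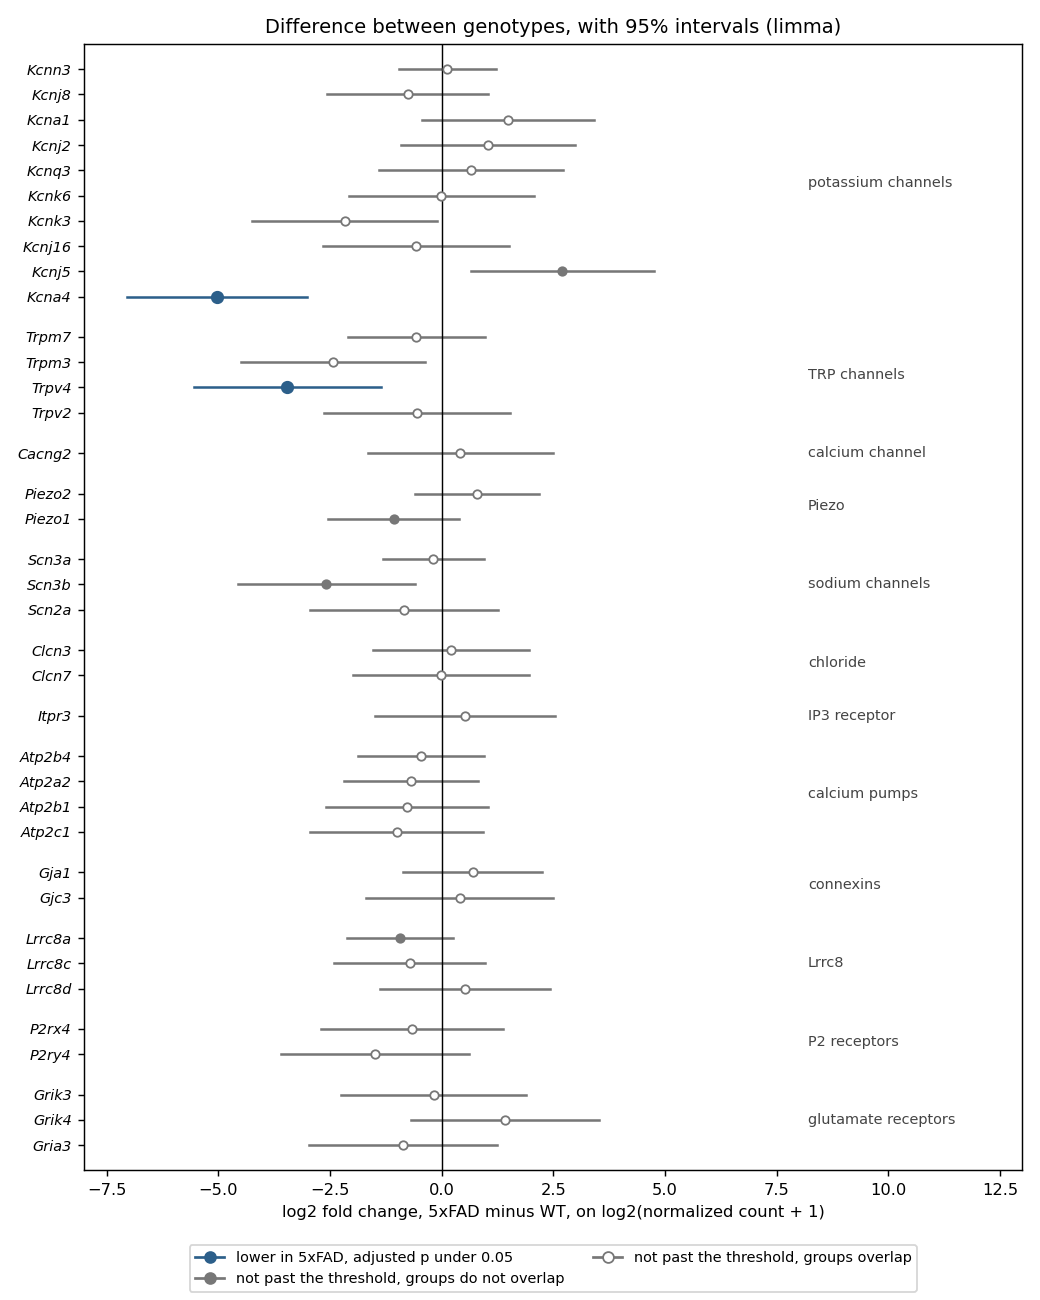
Log2 fold change, 5xFAD minus WT, on log2(normalised count + 1) with its 95% interval from limma for 37 of the 40 tested genes, grouped by class. The intervals of Kcna4 and Trpv4 lie below 0, and the plotted size for Kcna4 depends on the added 1 because 5xFAD has no reads.

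The listed genes share a limit on spread. On the scale of log2(reads + 1) the SD within a genotype stayed below 2 throughout the table, and the highest among the 42 genes was 1.97 in 5xFAD (Trpm3) and 1.83 in WT (Kcnj2). A gene that is at 0 in a whole genotype has no spread there and meets such a limit, as Kcna4 does in 5xFAD.

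Promoter sequence from RefSeq (GRCm38.p6, 250 bases before to 50 after an annotated start) was matched for 29 of the 42 genes. It is shown for the 5 matched genes among the 8 whose genotypes do not overlap, since these are the genes whose levels separate the libraries. Capitals mark the GC box GGGCGG, the TATA box TATAAA and the E box CACGTG on either strand, and no match overlapped another. In Kcna4 (chr2:107290339-107290638, plus strand), Trpv4 (chr5:114658372-114658671, minus strand), Piezo1 (chr8:122551280-122551579, minus strand) and Lrrc8a (chr2:30237519-30237818, plus strand) the 5xFAD libraries lay below WT, and in Kcnj5 (chr9:32344295-32344594, minus strand) above.
Kcna4: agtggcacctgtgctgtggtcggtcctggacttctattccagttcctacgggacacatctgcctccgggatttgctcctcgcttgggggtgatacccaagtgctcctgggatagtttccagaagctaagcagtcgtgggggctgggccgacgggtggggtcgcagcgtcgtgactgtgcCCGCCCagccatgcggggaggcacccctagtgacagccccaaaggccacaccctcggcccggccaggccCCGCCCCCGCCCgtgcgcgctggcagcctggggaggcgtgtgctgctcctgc
Trpv4: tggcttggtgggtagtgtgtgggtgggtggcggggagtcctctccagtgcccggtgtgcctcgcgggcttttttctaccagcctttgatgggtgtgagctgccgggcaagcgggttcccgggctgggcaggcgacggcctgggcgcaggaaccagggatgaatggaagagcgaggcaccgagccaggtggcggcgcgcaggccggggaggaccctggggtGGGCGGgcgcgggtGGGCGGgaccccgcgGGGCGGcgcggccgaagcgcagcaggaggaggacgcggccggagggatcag
Piezo1: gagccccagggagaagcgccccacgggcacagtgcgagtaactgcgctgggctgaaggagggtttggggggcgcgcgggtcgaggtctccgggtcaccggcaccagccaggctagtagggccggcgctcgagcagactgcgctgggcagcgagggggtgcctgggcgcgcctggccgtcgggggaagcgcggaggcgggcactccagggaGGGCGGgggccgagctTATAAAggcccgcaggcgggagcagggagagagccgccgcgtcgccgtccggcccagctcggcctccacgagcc
Lrrc8a: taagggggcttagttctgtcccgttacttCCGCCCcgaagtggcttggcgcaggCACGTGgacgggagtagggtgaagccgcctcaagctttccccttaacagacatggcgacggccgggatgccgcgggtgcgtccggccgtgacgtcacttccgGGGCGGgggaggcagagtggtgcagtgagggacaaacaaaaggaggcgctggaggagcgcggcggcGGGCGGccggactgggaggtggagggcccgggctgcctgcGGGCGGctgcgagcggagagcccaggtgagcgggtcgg
Kcnj5: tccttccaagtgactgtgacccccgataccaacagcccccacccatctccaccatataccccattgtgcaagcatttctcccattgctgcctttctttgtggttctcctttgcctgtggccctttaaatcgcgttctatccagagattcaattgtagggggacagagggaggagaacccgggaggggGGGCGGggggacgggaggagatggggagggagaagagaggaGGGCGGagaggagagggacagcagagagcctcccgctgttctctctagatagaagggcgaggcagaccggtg
A GC box stood in each of the 5 windows, with 3 matches in Kcna4, 3 in Trpv4, 1 in Piezo1, 4 in Lrrc8a and 2 in Kcnj5, while 35.7% of the 32851 RefSeq windows held it. The TATA box was found in Piezo1 (13.6% of all windows) and the E box in Lrrc8a (7.15% of all windows). The G and C share of the windows was 67.7% in Kcna4, 73.0% in Trpv4, 75.0% in Piezo1, 70.0% in Lrrc8a and 58.3% in Kcnj5, against a median of 52.7% over all windows.

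Among the mechanosensitive channels, the balance between the Piezo genes differed by genotype in every library. Piezo1, a stretch-gated cation channel that lymphatic valves need, was at 3540, 1466 and 2228 normalised counts in 5xFAD libraries 1, 2 and 3, against 5357, 4248 and 4789 in WT libraries 1, 2 and 3. The genotypes did not overlap, and 5xFAD was at 0.503 times the WT mean. Piezo2, known best as the touch and proprioception channel of sensory neurons, was at 6741, 2275 and 9548 in 5xFAD, against 2290, 4481 and 2763 in WT. Here the genotypes overlapped, because 5xFAD 2 lay just under the lowest WT library. Neither gene alone passed the test (Piezo1 log2 fold change -1.08, 95% interval -2.54 to 0.39, limma adjusted p = 0.522; Piezo2 0.79, -0.60 to 2.18, limma adjusted p = 0.670).

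As a share of the reads of both Piezo genes, Piezo2 made up 65.6%, 60.8% and 81.1% in the 5xFAD libraries, against 30.0%, 51.3% and 36.6% in the WT libraries. The exact 95% binomial interval of each share was at most 3.48 percentage points wide, for counting error only. The mean share was 69.2 ± 10.6% in 5xFAD and 39.3 ± 10.9% in WT (SD, n = 3 each; exact permutation p = 0.1, two-sided, the smallest possible for 3 against 3). Of 10 classes compared in this way by their most abundant gene, this p was reached by the Piezo and sodium channel classes, and adjusted over the 10 it was 0.5 (exact permutation). Exons of Piezo1 overlap those of Ctu2 on the opposite strand over 2.44 kb, and the use of strand in counting is not given in the sources used here, so reads of both cannot be told apart.

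All 5 TRP channel genes had a negative log2 fold change, and 1 of them fell. Trpv4, a calcium-permeable channel that responds to osmotic swelling and flow, was at 20.7, 8.51 and 2.65 normalised counts in 5xFAD libraries 1, 2 and 3, against 60.8, 236 and 67.2 in WT libraries 1, 2 and 3. These are 25, 7 and 2 reads in 5xFAD and 74, 254 and 76 in WT. Every 5xFAD library lay below every WT library, with the lowest value in 5xFAD 3 and the highest in WT 2. The log2 fold change was -3.46 (SE 1.07, limma adjusted p = 0.0227), and the call was lost without 5xFAD 2 (-3.49, limma adjusted p = 0.0558), 5xFAD 3 (-2.80, limma adjusted p = 0.209) or WT 2 (-2.83, limma adjusted p = 0.168), while the size was -4.08 without 5xFAD 1. Quantile normalization also ended it (-2.90, limma adjusted p = 0.0814).

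Trpv4 was the one TRP gene that passed. Trpm3, a heat- and steroid-gated channel, was at 22.4, 494 and 88.9 in 5xFAD and 208, 424 and 1836 in WT, so the genotypes overlapped through 5xFAD 2 (log2 fold change -2.43, limma adjusted p = 0.175). Of the 6 fits with a library left out, only the one without 5xFAD 2 called it (-3.57, limma adjusted p = 0.0372). The size was -1.37 without 5xFAD 1 (limma adjusted p = 0.652) and -1.56 without WT 3 (limma adjusted p = 0.665). Trpm7, a magnesium-permeable channel with a kinase domain and the most abundant TRP gene here, was at 1702, 2949 and 2270 in 5xFAD and 3737, 2367 and 4235 in WT (log2 fold change -0.57, 95% interval -2.10 to 0.96). Trpv2 was near the lower end, at 14.6 to 34.0 in 5xFAD and 11.5 to 69.9 in WT. Without WT 3, 4 of the 5 log2 fold changes were negative.

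**Figure D3:**
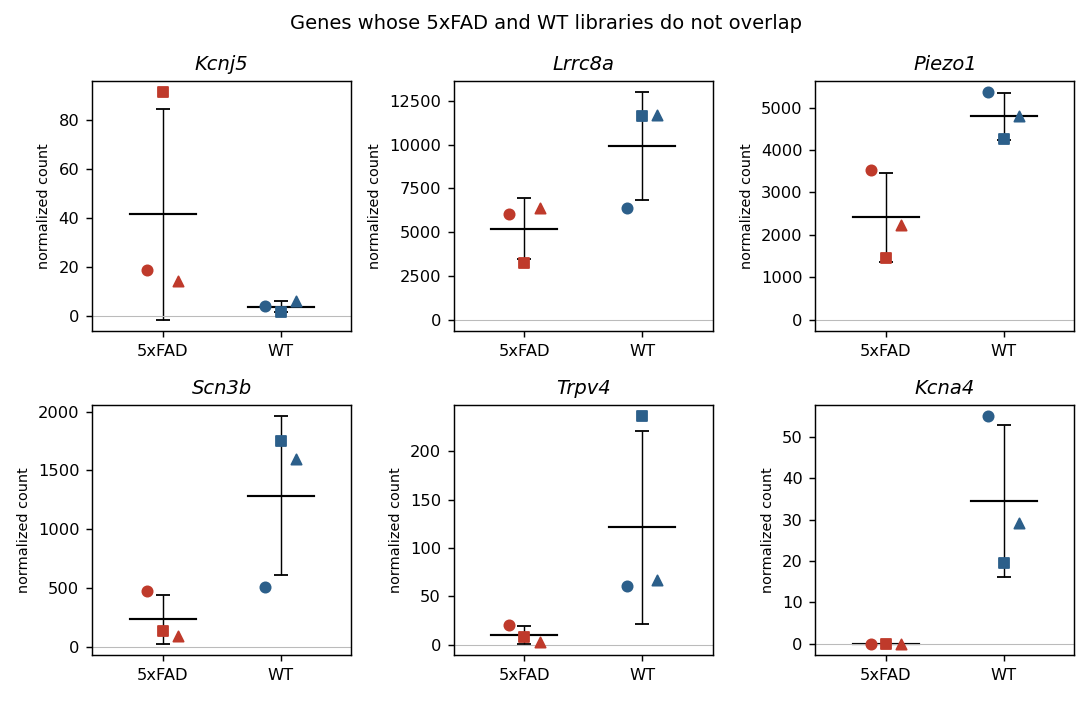
Normalised counts of 6 of the 8 tested genes whose genotypes do not overlap, by library, with 5xFAD left of WT, a line for the mean and bars for the SD of 3 libraries. Kcnj5 lies higher in all 5xFAD libraries and Lrrc8a, Piezo1, Scn3b, Trpv4 and Kcna4 lower, by narrow gaps in Lrrc8a and Scn3b.

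Genes that clear calcium from the cytosol had lower means in 5xFAD, and none passed the test. Atp2a2, the pump that refills the endoplasmic reticulum, was at 2043, 3651 and 1811 normalised counts in 5xFAD libraries 1, 2 and 3, against 7337, 3397 and 2291 in WT libraries 1, 2 and 3. Atp2b1, a plasma membrane calcium pump, was at 562, 652 and 1762 in 5xFAD and 3715, 1867 and 469 in WT. Atp2b4, the most abundant plasma membrane pump of the table, was at 3811, 2682 and 3362 in 5xFAD and 2768, 4301 and 7529 in WT. For each of these the genotypes overlapped, and a single WT library, WT 1 for Atp2a2 and Atp2b1 and WT 3 for Atp2b4, stood highest. Atp2c1, which loads the Golgi with calcium and manganese, was at 216, 1001 and 362 in 5xFAD and 985, 1580 and 414 in WT.

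Their log2 fold changes were between -1.01 (Atp2c1) and -0.46 (Atp2b4), with limma adjusted p between 0.707 and 0.850. All 4 signs stayed negative under every alternative setting that was refitted, a weak check because the settings reuse the same 6 libraries. Some sizes rest on a single WT library. Without WT 1 the log2 fold change was -0.11 for Atp2b1 and -0.23 for Atp2a2, and without WT 3 it was -0.086 for Atp2b4. The 4 pumps summed to 6632, 7985 and 7297 in 5xFAD and 14805, 11145 and 10703 in WT, so the sums did not overlap although each gene did. The sums were not tested, and those of all other classes overlapped between genotypes. Of all single tested genes, 10.1% had every 5xFAD library below every WT library. The balance among them moved between WT libraries, where Atp2b4 was 18.7%, 38.6% and 70.3% of the pump reads, against 57.5%, 33.6% and 46.1% in 5xFAD. On the release side, Itpr3, an IP3-gated channel of the endoplasmic reticulum, was at 672, 728 and 163 in 5xFAD and 543, 92.1 and 542 in WT (log2 fold change 0.52, 95% interval -1.50 to 2.53).

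Gja1, the connexin of gap junctions in endothelium and heart muscle, was at 2272, 4444 and 3430 normalised counts in 5xFAD and 2528, 1509 and 2150 in WT. The genotypes overlapped only through WT 1, which lay above 5xFAD 1, and the log2 fold change was 0.69 (95% interval -0.86 to 2.25, limma adjusted p = 0.767). Gjc3, a connexin of myelinating glia, was at 421, 97.3 and 53.1 in 5xFAD and 190, 33.5 and 146 in WT. Gja1 made up 93.6 ± 8.0% of the connexin reads in 5xFAD and 94.8 ± 2.6% in WT (SD, n = 3 each).

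**Figure D4:**
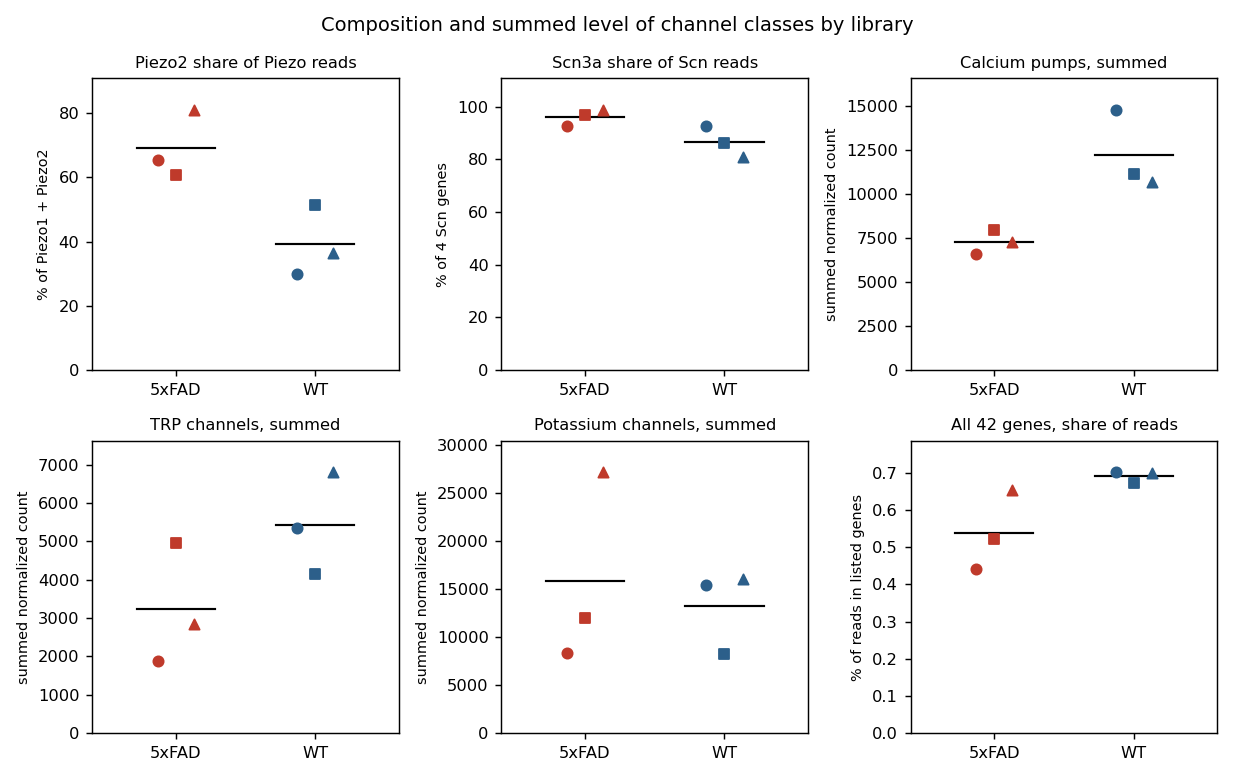
Share of class reads (percent), summed normalised count or share of all listed reads by library, with 5xFAD left of WT and a line for the mean of 3 libraries. The Piezo2 share, the Scn3a share, the summed calcium pumps and the share of reads in the 42 genes do not overlap between genotypes, while the summed TRP and potassium channel genes do. The sums and the share of reads in the 42 genes were not tested.

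Among potassium channel genes, Kcna4 fell in 5xFAD. Kcna4, a fast-inactivating voltage-gated channel of neurons and heart, had 0 reads in each 5xFAD library, against 67, 21 and 33 reads in WT libraries 1, 2 and 3 (55.1, 19.5 and 29.2 normalised counts). It was at least 32.8-fold lower in 5xFAD, with a floor of 3 reads over the genotype without reads (limma adjusted p = 4.88e-05). The call held with each library left out. This is a weak check, because no 5xFAD library has reads and limma's SE does not rest on the gene's own spread. The bound fell to 18.6 without 5xFAD 1, where fewer libraries stand behind the floor.

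Kcnq3, a subunit of slow voltage-gated potassium channels, was at 508, 394 and 88.9 in 5xFAD and 192, 174 and 135 in WT, so 5xFAD held both the highest and the lowest library (log2 fold change 0.66, limma adjusted p = 0.854). Kcna1, a voltage-gated channel known from axons, was at 800, 638 and 2799 in 5xFAD and 1050, 449 and 138 in WT, with the highest value in 5xFAD 3 (log2 fold change 1.48, limma adjusted p = 0.492). Of 10 neural and glial markers 1 was listed, and the part of neural or glial RNA in these values was not tested.

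Kcnj5, a channel opened by G proteins, was low in all libraries, with 23, 75 and 11 reads in 5xFAD and 5, 2 and 7 in WT. The genotypes did not overlap, and the log2 fold change of 2.70 did not pass (limma adjusted p = 0.110), though DESeq2 (adjusted p = 0.0245) and quantile normalization (limma adjusted p = 0.0180) called it. By edgeR (TMM, adjusted p = 0.0918) Kcnj5 did not pass. With single libraries left out it was called in 0 of 6 fits (limma adjusted p between 0.0928 and 0.451). Kcnk3, a background channel closed by acid, was at 3.32, 6.08 and 25.2 in 5xFAD and 134, 17.7 and 28.3 in WT (log2 fold change -2.18, limma adjusted p = 0.265). WT 1 stood far above the other libraries there, and 5xFAD 3 lay within the WT range.

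The more abundant potassium channels did not pass. Kcnn3 was at 5380, 7589 and 21778 in 5xFAD and 11871, 5657 and 10155 in WT (log2 fold change 0.13, 95% interval -0.95 to 1.21). Its sign turned without 5xFAD 3 (-0.46) or WT 2 (-0.19). Kcnj2, an inward rectifier that responds to flow in blood endothelium, was at 654, 1375 and 682 in 5xFAD and 1025, 691 and 98.2 in WT. Kcnj8, the pore of vascular channels closed by ATP, was at 395, 1597 and 1150 in 5xFAD and 937, 722 and 5206 in WT. Its sign rests on WT 3, since the log2 fold change was -0.76 with all libraries and 0.13 without that one.

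Kcnj8 and its partner Abcc9 are also markers of mural cells. Abcc9 was at 235, 1675 and 980 in 5xFAD and 567, 1309 and 2150 in WT, and the third listed mural marker, Pdgfrb, at 326, 742 and 167 in 5xFAD and 587, 830 and 502 in WT. The mural list (3 of 10 listed, Kcnj8 among them) summed to 955 to 4014 in 5xFAD and 2091 to 7859 in WT. The sum is not separate from Kcnj8, which gave 5206 of the 7859 in WT 3. The part of mural cells in the Kcnj8 values was not tested. Kcnk6, a background channel, was at 101 to 273 in 5xFAD and 80.5 to 402 in WT, and the inward rectifier Kcnj16 at 8.51 to 37.1 in 5xFAD and 18.1 to 46.5 in WT. Kcnd1, too low to be tested, had 10, 8 and 1 reads in 5xFAD and 7, 17 and 1 in WT.

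Among sodium channels, the auxiliary subunit was the one that separated the genotypes. Scn3b, a beta subunit that tunes the gating and surface level of the pore, was at 475, 139 and 98.2 in 5xFAD, against 510, 1750 and 1596 in WT. The gap between the nearest libraries, 5xFAD 1 and WT 1, was small, and the log2 fold change of -2.59 (95% interval -4.57 to -0.60) did not pass by limma (adjusted p = 0.116) but did by DESeq2 (adjusted p = 0.0318). It did not pass by edgeR (TMM, adjusted p = 0.160). With single libraries left out it was called in 0 of 6 fits (limma adjusted p between 0.0699 and 0.361). Scn3a, the most abundant pore subunit, was at 6504, 5933 and 10400 in 5xFAD and 7729, 11180 and 6899 in WT (log2 fold change -0.19, limma adjusted p = 0.935), and its sign turned without WT 2 (0.015). Scn3a made up 92.7%, 96.7% and 98.8% of the sodium channel reads in 5xFAD, against 92.5%, 86.3% and 80.7% in WT (exact permutation p = 0.1, the smallest possible, and 0.5 when adjusted over the classes). The exact 95% binomial intervals of 5xFAD 1 (92.1 to 93.2%) and WT 1 (91.9 to 93.0%) overlapped, so the gap between these libraries is within counting error. Most of the other sodium channel reads were of Scn3b, so the share in part repeats its difference. Scn2a was at 9.29 to 64.4 in 5xFAD and 19.5 to 120 in WT, and Scn1a, not tested, had 6, 1 and 13 reads in 5xFAD and 0, 6 and 1 in WT. Scn3a, Scn2a and Scn1a lie in a row on chromosome 2, with Scn2a starting 53.1 kb from the end of Scn3a and Scn1a 503 kb further on.

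For anion channels, Lrrc8a was at 6036, 3225 and 6360 in 5xFAD, against 6372, 11655 and 11707 in WT. The genotypes did not overlap, though 5xFAD 3 and WT 1 nearly met, and the log2 fold change was -0.94 (95% interval -2.12 to 0.25, limma adjusted p = 0.476). Exons of Lrrc8a share 2.85 kb on the same strand with Gm28035, so its reads may be split between them and its level is uncertain. Its partner subunits Lrrc8c and Lrrc8d lie 87.0 kb apart on chromosome 5. Lrrc8c was at 2148, 1612 and 669 in 5xFAD and 829, 2480 and 5043 in WT (log2 fold change -0.72), and Lrrc8d at 543, 2648 and 475 in 5xFAD and 317, 353 and 2081 in WT (0.52). The endosomal chloride-proton exchanger Clcn3 was at 839 to 2278 in 5xFAD and 1272 to 1470 in WT, and the lysosomal one, Clcn7, at 367 to 703 in 5xFAD and 211 to 837 in WT. The log2 fold change of Clcn3 was 0.21 with all libraries and -0.072 without 5xFAD 3.

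Both listed receptors for extracellular nucleotides had negative log2 fold changes that did not pass. P2rx4, an ATP-gated channel that takes part in flow sensing in blood endothelium, was at 491, 242 and 101 in 5xFAD and 657, 421 and 177 in WT (log2 fold change -0.67, limma adjusted p = 0.846). P2ry4, a receptor for UTP, was at 7.46, 18.2 and 126 in 5xFAD and 118, 22.3 and 165 in WT (-1.49, limma adjusted p = 0.545).

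Products of glutamate receptor genes are known mainly from synapses. Grik4, a kainate receptor subunit, was at 166, 49.8 and 267 in 5xFAD and 91.2, 13.9 and 85.8 in WT (log2 fold change 1.42, limma adjusted p = 0.585). Grik3, of the same family, was at 192, 260 and 75.6 in 5xFAD and 103, 88.3 and 606 in WT, and its log2 fold change was -0.18 with all libraries and 0.70 without WT 3. Gria3, an AMPA receptor subunit, was at 23.9 to 77.8 in 5xFAD and 46.0 to 139 in WT. Cacng2, which traffics AMPA receptors and is named for its likeness to calcium channel subunits, was at 20.7, 54.7 and 5.31 in 5xFAD and 31.2, 3.72 and 20.3 in WT, with a log2 fold change of 0.41 that turned to -0.41 without WT 2 and -0.34 without 5xFAD 2.

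**Figure D5:**
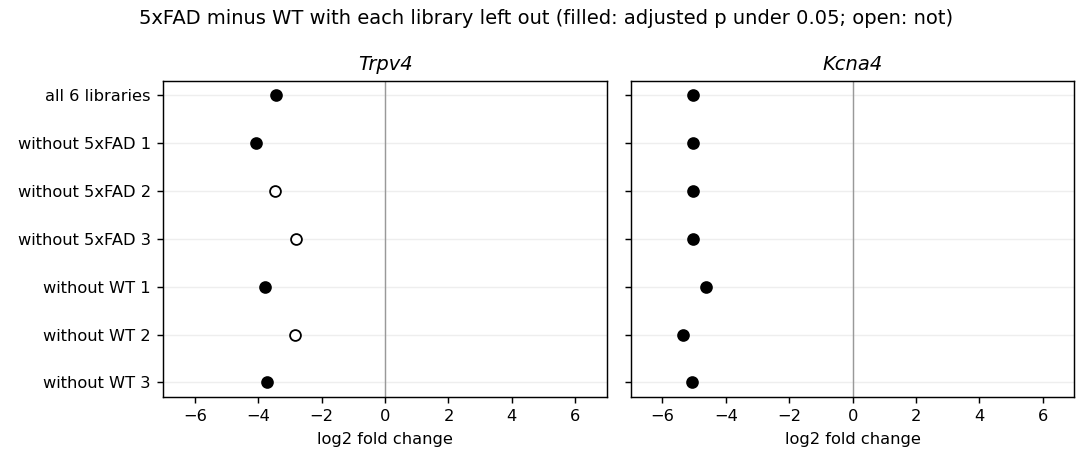
Log2 fold change, 5xFAD minus WT, of Trpv4 and Kcna4 with all 6 libraries and with each left out in turn, filled where the limma adjusted p was under 0.05. Kcna4 stays filled in every row, a weak check because no 5xFAD library has reads, and Trpv4 in 3 of the 6 left-out rows.

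Other genes that handle calcium and ions were read from fixed lists. Of 14 tested genes of calcium stores and exchange 1 was lower and 0 higher by limma (median 0.09 on the log2 scale). At an unadjusted p under 0.05 there were 3 lower and 2 higher, DESeq2 called 2 lower and 0 higher, and edgeR 1 lower and 0 higher. The gene called by limma was Saraf, which switches off store-operated calcium entry by acting on Stim1, at 78.8, 171 and 22.6 in 5xFAD, against 409, 392 and 2468 in WT. Its log2 fold change was -3.42 (SE 1.05, limma adjusted p = 0.0214), and the call was lost without 5xFAD 3 (-2.65, limma adjusted p = 0.219) or WT 3 (-2.55, limma adjusted p = 0.285), while the size was -4.09 without 5xFAD 2. Of 11 genes of the calmodulin, calcineurin and NFAT pathway 0 passed by limma (median -0.39), 1 was higher at an unadjusted p under 0.05, and DESeq2 called 1 higher and edgeR 0. Nfatc1, the calcium-driven factor of valve endothelium, was at 8600, 1639 and 3124 in 5xFAD and 7673, 5642 and 14041 in WT. Its genotypes overlapped (log2 fold change -1.26, limma adjusted p = 0.313). Ppp3r1, of the same list, went the other way without overlap, at 537, 201 and 1178 in 5xFAD and 77.2, 75.3 and 134 in WT. Its log2 fold change of 2.44 did not pass (limma adjusted p = 0.175). Of 13 other pumps and channels 1 was lower and 0 higher by limma, DESeq2 and edgeR (median 0.11), and 1 was lower and 1 higher at an unadjusted p under 0.05. The lower one was Kcnrg, a soluble protein that holds back potassium channels, with 0 reads in the 5xFAD libraries against 224, 312 and 920 normalised counts in WT (limma adjusted p = 1.81e-13). With a floor of 3 reads over the 5xFAD libraries it was at least 447-fold lower. Like Kcna4, Kcnrg has no spread in 5xFAD, and the p does not rest on its own spread. Of 11 flow-response genes and 5 junction scaffold genes 0 passed by limma, 0 had an unadjusted p under 0.05, and DESeq2 and edgeR called 0 (medians -0.07 and 0.29).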

How the data were processed

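Per the labels' protocols, PicoPure columns were used for RNA extraction, followed by linear amplification. The submitters' processing notes name Salmon, Trimmomatic, FastQC and DESeq2, and mm10 as the build, with no settings. The values deposited by the authors are a signal in which each library's gene counts share a scaling factor. Dividing each column by its step gave whole reads for 100% of values (within 1e-06). How the 4233 listed genes were selected is not given in the sources used here.

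Genes with a mean of at least 10 (4152) were tested on log2(value + 1) with limma 3.58.1 in R 4.3.3 (prior variance following level), two-sided, with Benjamini-Hochberg adjustment over all of them. Fold changes on that scale understate low genes. Because limma's prior took infinite degrees of freedom, SE and p rest on the average spread at a given level, not on the gene's own. On the recovered reads edgeR 4.0.16 called 80 genes higher and 171 lower (TMM), and DESeq2 1.42.0 163 and 264. Class shares were compared by exact permutation. Fitting was tested on simulated data. Exon lengths and positions are from GENCODE M21 (GRCm38, the assembly of mm10). The genes named in full were called genes, genes whose genotypes do not overlap with an absolute log2 fold change of at least 1, genes without reads in a genotype, the most abundant of each class and a fixed list of symbols. Lrrc8a is also the most abundant of its class. Some results are not reported here. Further genes were named after their values were seen. The genes and lists were chosen with earlier results of these data known. The libraries are separate pools of 10 mice, so p-values rest on spread between pools. For limma this is the average spread between pools at a given level, not that of the gene tested. Intervals on reads cover counting error only.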

Additional observations from a re-analysis of the deposited data

How the results depend on the processing

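Among the 40 tested channel genes the 2 higher and 2 lower calls became 0 and 1 when only genes with a mean of at least 50 were tested (Kcna4 was then not tested), 1 higher on scaling to the same total and 1 lower with quantile normalization (Trpv4 lost), for which the cause was not tested. Counts went up to 3 higher with quantile normalization and to 3 higher and 3 lower by DESeq2, which added Kcnj5 (both settings) and Scn3b (DESeq2). Leaving out single libraries gave 1 to 2 higher and 1 to 2 lower. Over all genes the 78 higher and 186 lower were 163 and 264 by DESeq2 (cause not tested), 117 and 164 after quantile normalization, 49 and 116 among genes of mean 50 or more, of which there are fewer, 134 and 229 when adjusted p could reach 0.1, and 56 to 84 and 145 to 192 with single libraries left out. With the replicate block there were 80 and 190, and 2 and 2 among the channel genes. Deviations from the genotype means were uncorrelated between libraries with the same number (0.00247, -0.0157 and -0.0126), so the numbers do not pair them. The median log2 fold change of all genes was -0.14 with equal totals and -0.02 as deposited.

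Of the 22 named channel genes that were tested, 15 kept their sign under every alternative run. Log2 fold changes turned to 0.033 for Grik3 with quantile normalization, and with single libraries left out the extremes were -0.41 and 1.23 for Cacng2, -0.072 and 0.65 for Clcn3, -0.68 and 0.70 for Grik3, -0.33 and 1.21 for Itpr3, -1.30 and 0.13 for Kcnj8, -0.46 and 0.55 for Kcnn3 and -0.44 and 0.015 for Scn3a.

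In each library 4 to 6 of the 42 genes had under 10 reads, so counting error limits what can be said of them.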
